A study of Mus musculus with 6 samples.

Results

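The integrated stress response (ISR) is the pathway by which cells slow general protein synthesis and turn on a rescue programme when amino acids run short, unfolded proteins accumulate, mitochondria fail or double-stranded RNA appears. Kinases that sense these stresses phosphorylate the initiation factor eIF2, which lowers translation of most mRNAs but raises that of Atf4, whose protein then drives genes of amino acid synthesis, transport and cell fate. In skeletal muscle the response is known above all from mitochondrial disease, in which fibres release the hormone FGF21. The 10 genes described here are the transcription factor genes Atf4, Atf5 and Ddit3, the effector genes Chac1, Trib3 and Sesn2, the amino acid synthesis genes Asns, Psat1 and Phgdh, and Fgf21. They were given by name and matched by GENCODE symbol to the 53947 genes of each table, and all 10 were found.

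They were measured by total RNA-seq in the quadriceps of mice aged 12 weeks, in 3 wild-type (WT) and 3 HSALR samples. The HSALR transgene is a human skeletal actin gene into which roughly 220 CTG repeats were placed. Its RNA is made in skeletal muscle, where the CUG repeats sequester MBNL proteins, as in the muscle of people with myotonic dystrophy type 1. No treatment, strain or litter is given in the sample labels, so that differences of genetic background cannot be told apart from those of the transgene, and separate animals are not stated, so that the spread behind each p-value may be technical.

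Levels are given as RSEM counts, as CPM (counts scaled to normalised library size) where libraries are compared, and as TPM (counts also divided by transcript length) where genes are compared. The abundant RNAs 7SL and 7SK took 14.15% to 15.53% of the counts in WT and 18.85%, 23.98% and 43.95% in HSALR replicates 2, 3 and 1, which lowers the TPM of other genes in HSALR as a whole. All 14 skeletal muscle fibre markers were detected, and their summed level was 126260 to 138400 CPM in WT and 70917 to 123150 CPM in HSALR. HSALR replicate 1 also had the highest summed level of 10 macrophage markers (659 CPM, against 150 to 170 in WT and 223 and 309 in the other HSALR libraries) and of 9 fibroblast markers (7113 CPM, against 1811 to 1969, 2211 and 3128). HSALR replicate 3 had the highest summed level of 8 adipocyte markers.

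Many ISR genes are known to be bound by ATF4 together with C/EBP factors at a composite element in their promoters. Windows from 250 bases before to 50 bases after the start of the canonical transcript were read on GRCm39 for all 10 genes and searched on both strands for 3 motifs. The C/EBP-ATF element, written TGATGNAAN, was found in Chac1, Ddit3 and Fgf21, and in 3.83% of 21770 protein coding promoters (2.5% of those of 12298 genes tested). The cyclic AMP response element TGACGTCA was in none of the 10 (2.44% of all promoters), and the E box CACGTG was in Fgf21 (7.81% of all). A missing match says only that these letters are not in this window. The 3 promoters with a C/EBP-ATF element are shown because they belong to the ISR gene with the clearest difference (Chac1), to the one that came next by p-value (Ddit3) and to one with no reads at all (Fgf21). Capitals mark the element, which lies on the reverse strand in each, and sequences run in the direction of transcription.
Chac1: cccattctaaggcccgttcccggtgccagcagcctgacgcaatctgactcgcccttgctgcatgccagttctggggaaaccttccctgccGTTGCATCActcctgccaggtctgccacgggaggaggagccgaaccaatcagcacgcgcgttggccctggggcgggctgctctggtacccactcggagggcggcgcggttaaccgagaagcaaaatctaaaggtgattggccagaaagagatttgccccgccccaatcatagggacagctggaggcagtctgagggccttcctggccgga
Ddit3: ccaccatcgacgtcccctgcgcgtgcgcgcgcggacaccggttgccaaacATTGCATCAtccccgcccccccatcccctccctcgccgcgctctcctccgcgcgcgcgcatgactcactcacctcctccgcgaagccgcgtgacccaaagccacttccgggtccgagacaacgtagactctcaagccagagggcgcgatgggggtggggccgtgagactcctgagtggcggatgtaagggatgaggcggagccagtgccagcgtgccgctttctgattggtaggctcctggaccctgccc
Fgf21: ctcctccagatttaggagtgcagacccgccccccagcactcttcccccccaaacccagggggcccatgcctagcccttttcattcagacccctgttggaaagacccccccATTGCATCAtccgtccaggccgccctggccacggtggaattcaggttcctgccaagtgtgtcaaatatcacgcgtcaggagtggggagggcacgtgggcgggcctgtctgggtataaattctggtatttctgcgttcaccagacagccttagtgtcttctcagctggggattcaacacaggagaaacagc

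The Chac1 window lies at chr2:119181439-119181738 on the plus strand, with the element 160 to 152 bases before the start. The Ddit3 window lies at chr10:127126310-127126609 on the plus strand, with the element 200 to 192 bases before the start, and the Fgf21 window at chr7:45264865-45265164 on the minus strand, with the element 140 to 132 bases before the start.

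The series compares HSALR with WT muscle to assess what loss of free MBNL proteins does to RNA levels. One of the 10 genes was called: Chac1, which was lower in HSALR. No ISR gene was called as higher. Of the 10 genes, 8 passed the filter on low counts, and the other two, Trib3 and Fgf21, did not. Over all 13576 genes tested, 11.8% were called by edgeR's quasi-likelihood test, 7.48% as lower and 4.28% as higher in HSALR. Chac1 and Ddit3 were below 0.05 before adjustment. In 3 of the 8 genes (Atf4, Ddit3 and Chac1) all HSALR values lay on one side of all WT values in CPM, which was also the case for 37.8% of all genes tested.

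**Figure D1:**
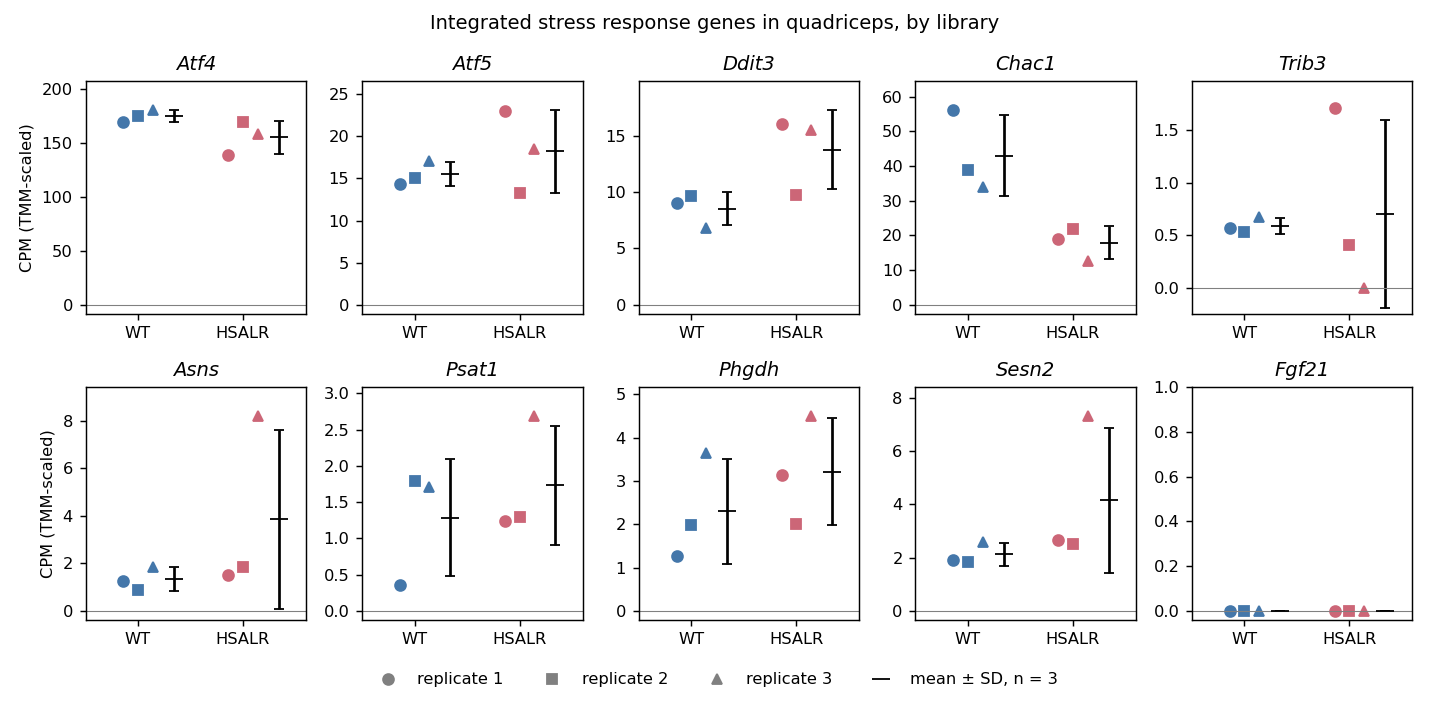
CPM (counts scaled to TMM-normalised library size, linear axes that include 0) of the 10 ISR genes in each library, with WT in blue, HSALR in red, a marker shape for each replicate and a black bar for the mean ± SD of 3 libraries. All Chac1 values in HSALR (12.7 to 21.9) sit below those in WT (33.9 to 56.1), Asns and Sesn2 stand high in HSALR replicate 3 alone, and Fgf21 is at 0 throughout.

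Compared per length, the transcription factor genes and Chac1 made up nearly all of the ISR RNA. In WT the levels were 67.3 ± 3.23 TPM for Atf4, 17.6 ± 4.91 for Chac1, 7.33 ± 1.76 for Ddit3 and 5.71 ± 0.401 for Atf5 (SD, n = 3). Ddit3 and Atf5 overlapped in WT. The other genes followed at 0.877 ± 0.296 TPM for Phgdh, 0.500 ± 0.458 for Psat1, 0.473 ± 0.151 for Asns, 0.383 ± 0.0577 for Sesn2 and 0.193 ± 0.0231 for Trib3, and from Phgdh to Sesn2 each gene overlapped with the next in this order. In HSALR, Atf4 was again highest (43.3 ± 18.1 TPM), followed by Ddit3 (8.05 ± 2.59), Chac1 (5.17 ± 2.42) and Atf5 (4.46 ± 0.980), and Chac1 overlapped with both Ddit3 and Atf5. The counts behind these values were whole (within 0.005) in all libraries except for Ddit3 in WT replicate 3 (92.12).

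Chac1 encodes a gamma-glutamylcyclotransferase that breaks down glutathione, and is a widely used readout of ATF4 activity (chromosome 2, 119180757 to 119184866, GRCm39). It had 795, 588 and 456 counts in WT replicates 1, 2 and 3, and 201, 272 and 190 in HSALR, or 56.1, 38.9 and 33.9 CPM against 19.1, 21.9 and 12.7 CPM. The groups did not overlap, and the 3 HSALR libraries lay at 44.4%, 51.0% and 29.7% of the WT mean. Chac1 fell from 43.0 ± 11.7 to 17.9 ± 4.70 CPM, a 2.40-fold decrease (log2 fold change -1.26 ± 0.25 SE, 95% interval -1.83 to -0.70, edgeR adjusted p = 0.02), and by its p-value it ranked 532 among the genes tested. The groups did not overlap in TPM either (13.2 to 22.9 against 3.34 to 7.92), a scale on which other genes too are lowered in HSALR. In bulk muscle, fewer cells that express a gene and less RNA per cell cannot be told apart. The call was lost without WT replicate 1 (edgeR adjusted p = 0.0809), WT replicate 2 (0.0647) or HSALR replicate 3 (0.0707). It was also lost after adjustment for the share of 7SL and 7SK (0.154). That share did not overlap between WT and HSALR, so that adjustment for it cannot separate it from the group. The log2 fold change of Chac1 stayed between -1.81 and -1.02 in all 19 alternatives. The paralog Chac2, which degrades glutathione at a slower, constant rate, had 8.66 ± 0.581 CPM in WT against 10.4 ± 1.81 CPM in HSALR (log2 fold change 0.26 ± 0.19, adjusted p = 0.371).

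Atf4, the master transcription factor of the response, is regulated mostly at translation, so its mRNA level does not measure its activity (chromosome 15, 80139372 to 80141745). It had 169, 175 and 180 CPM in WT replicates 1, 2 and 3 and 139, 169 and 158 CPM in HSALR. The highest HSALR value (169.08) lay just below the lowest WT value (169.41). The change was small and not called (log2 fold change -0.17 ± 0.14, 95% interval -0.48 to 0.13, adjusted p = 0.401), so that the data allow a fall of up to 0.48 or a rise of up to 0.13 on the log2 scale. On log2(TPM + 0.1) the log2 fold change was -0.74, a setting in which the median of all genes tested shifted to -0.46.

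Atf5, a related factor linked to the mitochondrial stress response, had 14.3, 15.01 and 17.1 CPM in WT and 23.0, 13.2 and 18.4 CPM in HSALR replicates 1, 2 and 3 (chromosome 7, 44461680 to 44466082, overlapping Nup62 and Il4i1 on the other strand). HSALR replicate 2 was the lowest of all 6 libraries and HSALR replicate 1 the highest, so the groups overlapped (log2 fold change 0.23 ± 0.20, 95% interval -0.22 to 0.68, adjusted p = 0.446). The sign turned after adjustment for the share of 7SL and 7SK (-0.18) and on log2(TPM + 0.1) (-0.37). In the latter setting the median of all genes tested was -0.46.

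Ddit3 encodes CHOP, which ATF4 induces and which links prolonged stress to cell death (chromosome 10, 127124268 to 127132163). It had 128, 146 and 92.12 counts in WT and 169, 121 and 231 in HSALR, or 9.04, 9.66 and 6.84 CPM against 16.1, 9.75 and 15.5 CPM. HSALR replicates 1 and 3 were well above WT, while replicate 2 was barely above the highest WT library. The log2 fold change of 0.69 ± 0.23 (95% interval 0.17 to 1.21) was not called (edgeR adjusted p = 0.0777). It was called without HSALR replicate 2 (0.88, adjusted p = 0.0166) and with no count filter (0.68, adjusted p = 0.0372). It was 0.38 with the length trend removed and 0.41 after adjustment for the share of 7SL and 7SK. On log2(TPM + 0.1) it was 0.12, where the median of all genes tested was -0.46. In TPM the groups overlapped (5.39 to 8.82 in WT, 5.65 to 10.8 in HSALR). The span of the gene overlaps those of Mars1, Mbd6 and Gm4189 on the other strand and of the lncRNA genes Gm20492 and Gm66222 on the same strand. Whether exons are shared was not examined, so reads of these genes may be counted on Ddit3. In HSALR replicates 1, 2 and 3 the summed macrophage markers were at 659, 223 and 309 CPM and the summed fibroblast markers at 7113, 2211 and 3128 CPM. The part of these cells in the Atf5 and Ddit3 values was not tested.

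Trib3, a pseudokinase that ATF4 and CHOP induce and that feeds back on both, was close to the floor (chromosome 2, 152179337 to 152191958). It had 8, 8 and 9 counts in WT and 18, 5 and 0 in HSALR replicates 1, 2 and 3, where 0 counts allow up to 0.201 CPM in replicate 3. The spread in HSALR thus exceeded any difference between the groups (0.587 ± 0.0722 CPM in WT, 0.704 ± 0.894 in HSALR, two-sided exact permutation p = 1, where the smallest possible is 0.1). Its paralogs were more abundant: Trib1 was at 13.1 ± 1.56 and 15.6 ± 1.95 CPM (adjusted p = 0.311) and Trib2 at 14.3 ± 1.97 and 11.7 ± 1.51 CPM (adjusted p = 0.265) in WT and HSALR.

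Fgf21, the hormone gene by which stressed muscle signals to liver and fat, had 0 counts in all 6 libraries (chromosome 7, 45263301 to 45266963). At these depths 0 counts allow a level of up to 0.198 to 0.285 CPM per library, so that a level below this could not be detected. No fold change can be given. Among 7 genes of its receptor and regulators, none was called by edgeR, and none was below 0.05 before adjustment. The lowest p-values belonged to the receptor gene Fgfr1 (54.2 ± 1.78 and 70.5 ± 18.0 CPM in WT and HSALR, adjusted p = 0.183, but 0.0316 without HSALR replicate 2) and to Ppara, which drives Fgf21 in liver (12.9 ± 2.55 and 9.44 ± 3.56 CPM, adjusted p = 0.287).

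**Figure D2:**
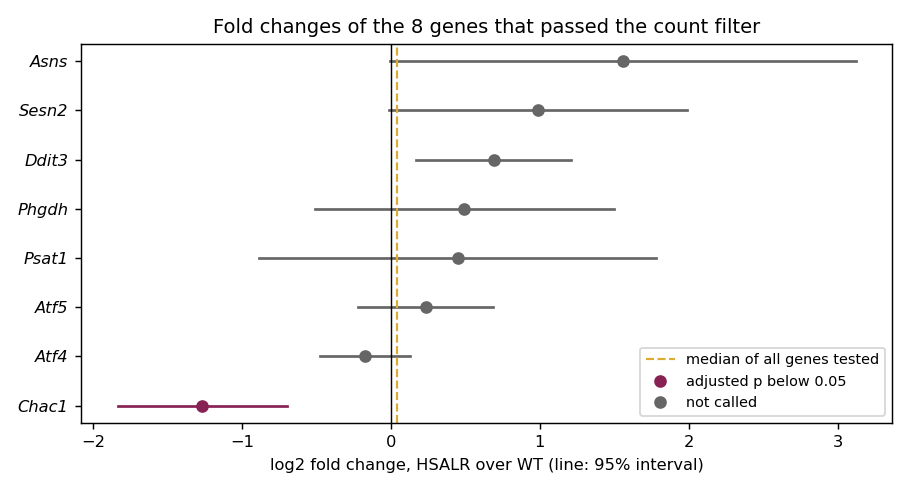
Log2 fold changes (HSALR over WT, points) with 95% intervals (lines) of the 8 ISR genes that passed the count filter, with the median of all genes tested (0.04) as a dashed line. Chac1 (-1.26) is the gene called, and the intervals of Asns and Sesn2, at 1.56 and 0.99, reach 0.

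Asns, the asparagine synthetase gene and a classic ATF4 target, had 18, 13 and 25 counts in WT and 16, 23 and 122 in HSALR replicates 1, 2 and 3, or 1.27, 0.860 and 1.86 CPM against 1.52, 1.85 and 8.18 CPM (chromosome 6, 7671667 to 7728461). HSALR replicate 3 was at 615% of the WT mean, while the other HSALR libraries lay within the WT range. The log2 fold change of 1.56 ± 0.68 was not called (edgeR adjusted p = 0.158) and was 0.35 without HSALR replicate 3 (adjusted p = 0.66).

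Sesn2, which encodes a leucine-binding inhibitor of mTORC1, had 27, 28 and 35 counts in WT and 28, 31 and 109 in HSALR, or 1.91, 1.85 and 2.60 CPM against 2.66, 2.50 and 7.31 CPM (chromosome 4, 132219335 to 132237815). Here too HSALR replicate 3 stood apart from the other 5 libraries. The log2 fold change of 0.99 ± 0.44 was not called (adjusted p = 0.163) and was 0.28 without that library (adjusted p = 0.619). The span of Sesn2 overlaps that of the lncRNA gene Gm12981 on the same strand, and whether exons are shared was not examined. The paralogs Sesn1 (17.7 ± 1.46 and 23.0 ± 1.86 CPM, adjusted p = 0.0935) and Sesn3 (24.7 ± 4.52 and 18.0 ± 0.965 CPM, adjusted p = 0.0892) did not overlap between WT and HSALR and had opposite signs, and neither was called. Of all genes tested, 37.8% did not overlap between the groups.

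Phgdh and Psat1 encode the first and second enzymes of serine synthesis from glycolysis. Phgdh had 1.27, 1.98 and 3.64 CPM in WT and 3.13, 2.01 and 4.49 CPM in HSALR replicates 1, 2 and 3 (chromosome 3, 98220484 to 98255047). Psat1 had 0.353, 1.79 and 1.71 CPM in WT and 1.23, 1.29 and 2.68 CPM in HSALR (chromosome 19, 15882039 to 15924701). Both overlapped widely between the groups, and both were highest in HSALR replicate 3. Their log2 fold changes were 0.49 ± 0.45 (95% interval -0.51 to 1.497, adjusted p = 0.469) for Phgdh and 0.45 ± 0.59 (-0.88 to 1.78, adjusted p = 0.628) for Psat1. At 5 to 67 counts per library these intervals span both directions. The value of Psat1 was -0.027 without HSALR replicate 3 and 0.013 without WT replicate 1.

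The amino acid synthesis genes among the ISR genes, and Sesn2, thus peaked in the same library. Of the 8 ISR genes tested, Asns, Sesn2, Phgdh and Psat1 were highest in HSALR replicate 3, which was the highest library for 15.4% of all genes tested. Asns and Sesn2, but not Phgdh and Psat1, were there more than 2-fold above all other libraries. So were 122 of the 13576 genes tested (0.899%), against 530 (3.9%) in HSALR replicate 1. Chac1, in contrast, was lowest in HSALR replicate 3, and Trib3 had no counts in it. Of the genes around the ISR described below, none of 13 serine, glycine and one-carbon genes was more than 2-fold above all other libraries there. Nor was any of 8 proline and other amino acid genes, 19 further ATF4 targets or 20 tRNA synthetases. Of 14 amino acid transporters, 9 ATF4 partners and 7 genes of the FGF21 receptor and regulators, 1 each was so in HSALR replicate 3. The same library had the highest level of 7 of 8 adipocyte markers, 6 of them more than 2-fold above all other libraries. Their summed level was 403, 767 and 942 CPM in WT replicates 1, 2 and 3 and 532, 438 and 1960 CPM in HSALR, and none of the 8 was at 0 in any library. Adiponectin (Adipoq), the defining adipocyte hormone, was at 0.989, 14.0 and 49.3 CPM in WT and 3.99, 17.6 and 117 CPM in HSALR. The part of adipocytes in these values was not tested.

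**Figure D3:**
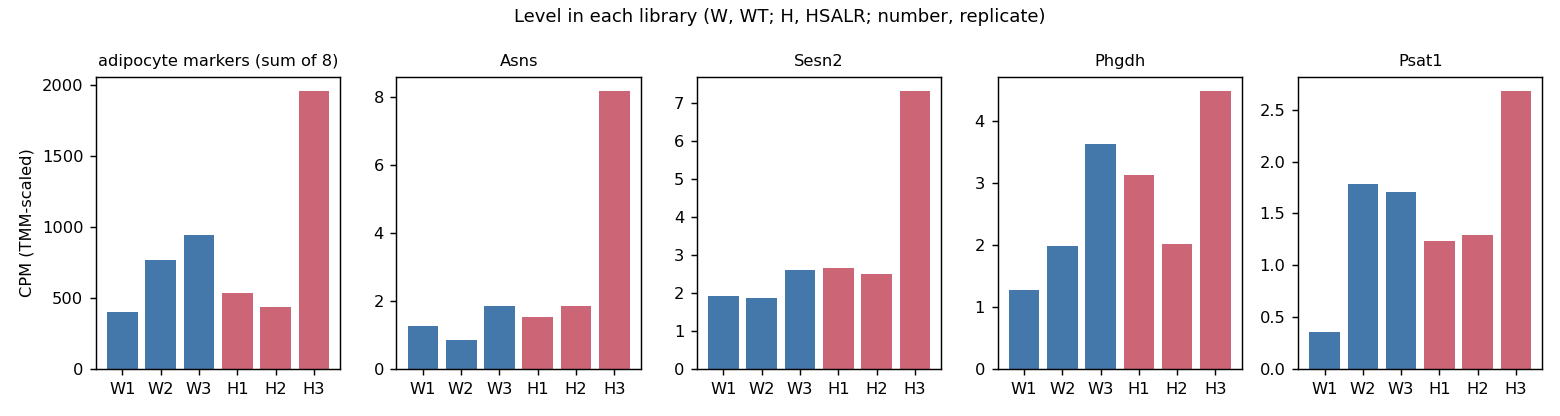
Level in each library (bars, CPM, linear axes from 0) of the sum of 8 adipocyte markers and of Asns, Sesn2, Phgdh and Psat1, with WT (W) in blue and HSALR (H) in red. HSALR replicate 3 (H3) is the highest bar in each panel, at 1960 CPM for the markers and 8.18 CPM for Asns. The 4 genes shown are those of the 8 ISR genes tested that were highest in this library, and the others are left out.

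The genes around the ISR were described in 12 lists that hold 154 genes, of which 145 were tested. In all, 6 were called as higher and 16 as lower in HSALR (15.2%, against 11.8% of all genes tested), with a median log2 fold change of -0.08 (0.04 over all genes tested). Of the 20 called genes that are named here, Slc38a2 alone kept its call in all 19 alternatives, at an adjusted p of up to 0.04998. The other 19 lost their call in 4 to 12 of the alternatives. Without HSALR replicate 3 or without WT replicate 2 or 3, 19 of the 20 lost their call, and without WT replicate 1, 18 did. All 6 named genes that were called as higher also lost their call on log2(TPM + 0.1) and on log2(TPM + 1). Of the 14 named as lower, 8 and 7 did. In these settings only 50 and 78 of all genes tested were called as higher, against 581 by edgeR. The medians of all genes tested were -0.46 and -0.28 there. Of the sensors and their regulators, 2 of 9 were lower and none higher (22.2% called). Eif2ak1, which encodes the haem-regulated kinase HRI, fell from 24.4 ± 2.13 to 16.7 ± 0.860 CPM (log2 fold change -0.55 ± 0.13, adjusted p = 0.0306). Impact, whose protein restrains the amino acid sensor GCN2, fell from 25.0 ± 6.08 to 12.9 ± 1.91 CPM (-0.95 ± 0.20, adjusted p = 0.0213).

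Of the 9 subunits of eIF2 and its exchange factor eIF2B, 1 was lower (11.1%, against 11.8% of all genes tested). It was Eif2s2, the beta subunit of eIF2 (98.9 ± 9.01 to 62.1 ± 11.2 CPM, adjusted p = 0.0317). Of the 5 phosphatase subunits that reverse eIF2 phosphorylation, the catalytic subunit gene Ppp1cb fell from 180 ± 2.51 to 96.1 ± 21.2 CPM (log2 fold change -0.90 ± 0.17, adjusted p = 0.0158). Ppp1cb also serves many other phosphatase complexes in muscle. Among 9 partners of ATF4 and related factors, Cebpg, a dimer partner of ATF4, fell (39.8 ± 3.35 to 28.2 ± 0.778 CPM, adjusted p = 0.0369) and Cebpd rose (16.0 ± 1.53 to 23.1 ± 2.89 CPM, adjusted p = 0.0493). Cebpg lost its call in 10 of 19 alternatives and Cebpd in 12, with adjusted p = 0.0561 by DESeq2 for Cebpd. The shares called were 20.0% of the phosphatase subunits and 22.2% of the partners and related factors. Atf3, an ATF4 target and immediate early gene, was at 4.52, 12.5 and 32.7 CPM in WT and 12.7, 57.2 and 39.6 CPM in HSALR replicates 1, 2 and 3 and overlapped between the groups (adjusted p = 0.432).

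Of 14 amino acid transporters tested, 2 were lower and none higher (14.3%, against 11.8% of all genes tested). Slc38a2, the neutral amino acid transporter SNAT2 that ATF4 induces on amino acid shortage, had 125, 159 and 168 CPM in WT and 65.8, 76.1 and 68.6 CPM in HSALR replicates 1, 2 and 3. It fell by 1.11 on the log2 scale (± 0.15 SE, adjusted p = 0.0059) and was called in all 19 alternatives. The highest adjusted p among these was 0.04998, just below the threshold of 0.05. Slc38a4, the related SNAT4, fell from 56.9 ± 10.4 to 23.5 ± 7.52 CPM (-1.28 ± 0.23, adjusted p = 0.0145). In both the groups did not overlap, as in 37.8% of all genes tested.

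Of 20 cytosolic aminoacyl-tRNA synthetases, which charge tRNAs and many of which ATF4 induces, 6 were lower and none higher. The share called was 30.0%, against 11.8% of all genes tested. Their median log2 fold change was -0.44, with negative values for 18 of the 20. Iars1 (isoleucine) fell from 66.6 ± 2.25 to 36.7 ± 5.75 CPM (-0.86 ± 0.14, adjusted p = 0.0101). Gars1 (glycine), Tars1 (threonine) and Aars1 (alanine) fell by 0.66, 0.62 and 0.51 on the log2 scale. The number called as lower was 0 without any single WT library or without HSALR replicate 3, 15 without HSALR replicate 2, 3 with upper-quartile factors or with the length trend removed, and 1 in each TPM setting and after adjustment for the share of 7SL and 7SK (median -0.27). Of the 14 skeletal muscle fibre markers, 13 also had negative log2 fold changes (median -0.35), and their part in the synthetase values was not tested.

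Of 8 genes of proline and other amino acid metabolism, Gpt2, the mitochondrial alanine aminotransferase, fell from 211 ± 15.9 to 114 ± 28.4 CPM (adjusted p = 0.023). Of 13 serine, glycine and one-carbon genes, Aldh1l2, a mitochondrial folate enzyme, fell (6.80 ± 1.31 to 3.48 ± 0.444 CPM, adjusted p = 0.0336) and the cytosolic Shmt1 rose (8.44 ± 1.32 to 16.0 ± 5.72 CPM, adjusted p = 0.0494). The call of Shmt1 was lost in 9 of 19 alternatives, and its log2 fold change of 0.92 was 0.27 on log2(TPM + 1). In that setting the median of all genes tested was -0.28. Of 19 further ATF4 targets, Gadd45b, a growth arrest gene, rose (9.34 ± 1.05 to 17.4 ± 3.37 CPM, adjusted p = 0.0201) and none was lower. Gadd45b lost its call in 6 of 19 alternatives. The shares called were 12.5% of the proline and other amino acid genes, 15.4% of the serine, glycine and one-carbon genes and 5.26% of the further targets. Of all genes tested, 11.8% were called.

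Of 21 genes of the unfolded protein response of the endoplasmic reticulum, 2 were higher and none lower (9.52%, against 11.8% of all genes tested): the secreted chaperone gene Manf (12.9 ± 0.590 to 19.3 ± 1.16 CPM, adjusted p = 0.0274) and the disulfide isomerase gene Pdia4 (11.8 ± 0.774 to 18.6 ± 3.23 CPM, adjusted p = 0.0362). Each lost its call in 8 of 19 alternatives, and their log2 fold changes of 0.57 and 0.65 were 0.019 and 0.080 on log2(TPM + 0.1). In that setting the median of all genes tested was -0.46, against 0.04 by edgeR. Of 11 genes of the mitochondrial unfolded protein response, 2 were called (18.2%): the co-chaperonin gene Hspe1 rose (45.0 ± 1.75 to 67.1 ± 5.98 CPM, adjusted p = 0.0238) and the protease gene Afg3l2 fell (47.3 ± 3.22 to 31.9 ± 4.07 CPM, adjusted p = 0.0345). Each lost its call in 9 of 19 alternatives, and the log2 fold change of Hspe1, 0.58, was 0.0050 on log2(TPM + 0.1). The medians of these lists were 0.14 and -0.22.

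**Figure D4:**
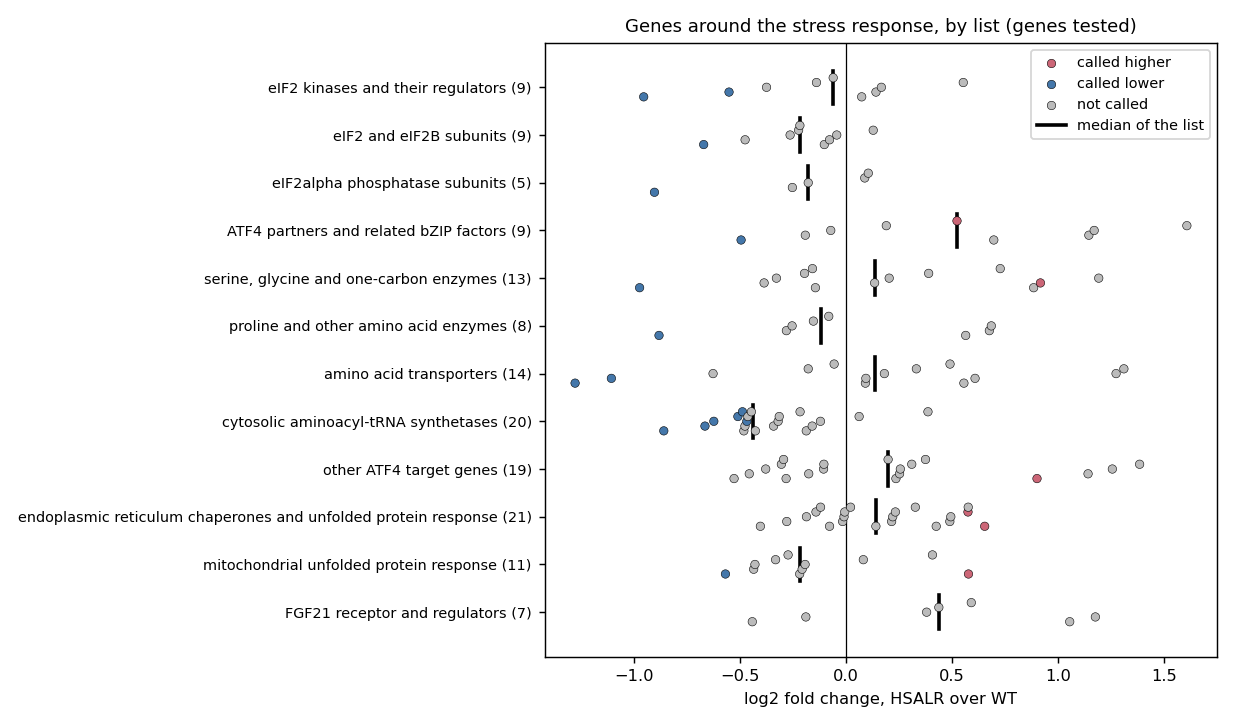
Log2 fold changes (HSALR over WT) of the genes tested in the 12 lists around the ISR, 1 point per gene with red for genes called higher, blue for genes called lower and grey for the others, and a black bar at the median of each list (number of genes tested in parentheses). The tRNA synthetases lie mostly left of 0 (median -0.44), and the 2 lowest transporters are Slc38a4 and Slc38a2.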

How the data were processed

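Total RNA of quadriceps muscle was sequenced by the authors after removal of ribosomal RNA (TRIzol extraction, stranded TruSeq libraries, 3 WT and 3 HSALR samples, grouped by their titles). RSEM 1.3.1, Bowtie2 and the build GRCm39 are listed in the submitters' processing notes. The annotation release and the strand setting of the counting are not given in the sources used here, and the test was not taken from the paper, which describes its small RNA libraries only. The deposited tables hold expected counts (RSEM's estimate of the reads of each gene) for 53947 genes. The deposited TPM values are these counts per effective length, scaled to a fixed sum per library. FPKM values deposited by the authors were not used. The deposited gene lengths, weighted over isoforms, were used for 1 alternative.

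Expected counts were rounded and tested with edgeR 4.0.16 in R 4.3.3 (filterByExpr with a count minimum of 10, TMM factors, robust quasi-likelihood F test, group as the only term). Of the 53947 genes, 13576 were kept. Benjamini-Hochberg adjustment ran over all genes kept, and an adjusted p below 0.05 was called. CPM values are counts scaled to the TMM-normalised library size. SEs are the absolute log2 fold change over the square root of F, and 95% intervals use the test's degrees of freedom. GENCODE M39 (GRCm39) gave a symbol and coordinates for 53400 genes (98.99%). Ddit3 has 2 identifiers, of which the longer was used, since the other held at most 0.88 counts in a library. By their spans, Trib3, Asns, Psat1 and Fgf21 overlap other genes on the opposite strand only.

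The ISR genes were given, and the surrounding gene lists, marker lists, motifs and alternatives were chosen with earlier results of these data known. The text names the 10 ISR genes, paralogs of them, markers whose level bears on a result, and from each list up to 4 called genes with the lowest p, or 2 where none was called. Library totals ran from 11468959 to 15023710 counts, at which 3 counts, taken as the floor, are 0.198 to 0.285 CPM. Floors cover counting error only. The procedure was run on simulated counts drawn with the same spread in both groups. The HSALR libraries differed more among themselves than the WT libraries did, which the simulation does not cover. Alternatives were DESeq2 1.42.0, voom and limma-trend on log2(TPM + 0.1) or log2(TPM + 1) (limma 3.58.1), RLE and upper-quartile factors, other filters and library sizes, protein coding genes only, a replicate block, a 7SL and 7SK covariate, removal of a loess trend on length (span 0.5), and each library left out.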

Additional observations from a re-analysis of the deposited data

How the results depend on the processing

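Of the 19 alternatives, 15 kept the call of Chac1, and no alternative turned its direction. The number of ISR genes called was 1 by edgeR, 2 with no count filter, 0 with the share of 7SL and 7SK as covariate (2 at an unadjusted p below 0.05), and 0 to 2 with a library left out (0 without WT replicate 1 or 2 or HSALR replicate 3). The number of all genes called was 1597, and 519 on log2(TPM + 0.1), 825 on log2(TPM + 1), 935 with the covariate and 166 to 3294 with a library left out. With upper-quartile factors, 728 were higher and 781 lower, against 581 and 1016. Of the genes of the 12 lists, 22 were called, and 6 and 7 in the TPM settings (all lower), 11 with the covariate (7 higher and 4 lower, against 6 and 16), 14 with the length trend removed and 1 to 44 with a library left out. Both TPM settings shifted the median log2 fold change of all genes tested, to -0.46 and -0.28. In these settings the sign turned for Atf5 (-0.37 and -0.31), Psat1 (-0.10 and -0.085), Fgfr1 (-0.30 and -0.27), Trib1 (-0.29 and -0.18), Sesn1 (-0.19 and -0.15) and Chac2 (-0.30 and -0.24). It also turned with the covariate for Atf5 (-0.18) and Fgfr1 (-0.029), and without HSALR replicate 3 for Psat1, whose values with a library left out ran from -0.027 to 0.76. None of these 6 genes was called under the settings in which its sign turned. The cause was not tested. The share of 7SL and 7SK did not overlap between the groups, so that the covariate cannot be separated from the group. Libraries with the same replicate number deviated from their group means with correlations of -0.02, -0.11 and 0.26 across genes. Libraries with different numbers had correlations of -0.18 to 0.19. The sample labels do not say whether the numbers pair the samples, and these few values cannot decide it. With the replicate block, 799 genes were called, of them 1 ISR gene and 9 genes of the lists (3 higher and 6 lower, with 1 synthetase and no gene of either unfolded protein response list). Depth limits Trib3, Fgf21, Psat1, Asns, Phgdh and Sesn2 most, with 0 to 122 counts per library.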
